A study of Mus musculus with 12 samples.

Results

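The 40 genes described here are a list of cell cycle genes whose products copy DNA, drive entry into mitosis, separate chromosomes or serve as markers of proliferating cells. They were picked by gene symbol from tables of 15002 genes. The rule used no measured difference, but earlier results of these data were known when the lists were chosen. All 40 were found, and all 40 were among the 11900 genes that passed the filter on low counts. They were measured by RNA-seq in 12 libraries of IEC4.1, a mouse intestinal epithelial cell line that the labels give as WT, in 4 conditions with 3 libraries each. Every culture was transfected with siRNA, at 120 nM in all. The siRNA was a scrambled one in siR_Ctrl cultures, and in siR_Nostrill cultures 3 siRNAs directed at Nostrill, a long noncoding RNA, were pooled. The dose of siRNA is that of the study's methods. Each kind of culture was left without IFN-γ or received IFN-γ, for which the methods give 1 ng/ml for 4 h and the labels give 24 h for every library. A pool of siRNAs and 1 cell line bound what the comparisons can show, and the level of Nostrill was not analysed here, so the knockdown was not checked against the labels. The methods describe biological triplicates.

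Cells divide by passing through ordered phases. D- and E-type cyclins with their kinases release E2F transcription factors, whose targets supply the helicase, the clamp and the nucleotides for DNA replication. Later, A- and B-type cyclins with Cdk1, together with the Aurora and Polo kinases, drive mitosis, and the spindle checkpoint holds back Cdc20 until every chromosome is attached. Transcripts of the first set peak around the start of DNA synthesis and those of the second in G2 and M phase, so in bulk RNA they follow the make-up of a culture by phase. In the intestine they mark the dividing cells of the crypt, and IFN-γ is known to restrain growth of many epithelial cells. In bulk RNA, fewer cycling cells and less RNA per cycling cell cannot be told apart.

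The libraries held 17824306 to 19093204 reads on genes. The siR_Ctrl replicate 1 library stood apart. The mean transcript length of its reads (geometric mean, weighted by reads) was 2522 nt, against 1815 to 2286 nt in the other 11 libraries, and it held the highest of the 12 normalised values for 19 of the 40 genes. The labelled cell type was also checked. Of 14 intestinal epithelial markers, 9 were in the tables, and only Krt19 had a mean above 1 FPKM (mapped fragments scaled for library size and transcript length), at 0.91 to 2.76 FPKM. Krt8 reached at most 0.28 FPKM, Krt18 0.10 FPKM and Vil1 0.07 FPKM, all near 0, while Epcam and Cdh1 were not analysed here. Of 8 fibroblast markers, 6 had a mean above 1 FPKM, and Col1a1 lay between 176 and 315 FPKM. The summed level of the fibroblast markers ranged from 454 to 674 FPKM in siR_Ctrl, 380 to 597 FPKM in siR_Ctrl + IFN-γ, 422 to 605 FPKM in siR_Nostrill and 438 to 507 FPKM in siR_Nostrill + IFN-γ cells. The defining epithelial markers measured therefore go against the label, and the cells are called IEC4.1 here by their line only. Leukocyte and endothelial markers summed to at most 2.18 and 0.18 FPKM.

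Promoter sequences are shown for the pair of genes that passed the test in a siR_Nostrill comparison, Rrm2 and Mcm2, and for Mki67, which was added after its values were seen. Each runs from 250 bases before to 50 bases after a transcription start taken from RefSeq on GRCm38.p6, 5′ to 3′ on the gene's strand. For Rrm2 and Mcm2 that start is the outer end of the RefSeq gene, and for Mki67 it lies 71 bases inside it. Capitals mark matches to the CCAAT box (CCAAT on either strand), which binds NF-Y, and to the CHR element (TTTGAA or TTCGAA on either strand), which binds the MuvB complexes of G2/M genes.
Rrm2 (chr12:24708004-24708303, plus strand): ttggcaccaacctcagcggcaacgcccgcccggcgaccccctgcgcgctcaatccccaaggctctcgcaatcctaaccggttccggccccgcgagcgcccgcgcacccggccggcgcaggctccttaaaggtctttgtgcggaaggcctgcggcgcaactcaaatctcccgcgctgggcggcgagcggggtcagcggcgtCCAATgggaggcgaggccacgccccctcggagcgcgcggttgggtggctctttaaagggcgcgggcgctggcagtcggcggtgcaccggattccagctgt
Mcm2 (chr6:88898731-88899030, minus strand): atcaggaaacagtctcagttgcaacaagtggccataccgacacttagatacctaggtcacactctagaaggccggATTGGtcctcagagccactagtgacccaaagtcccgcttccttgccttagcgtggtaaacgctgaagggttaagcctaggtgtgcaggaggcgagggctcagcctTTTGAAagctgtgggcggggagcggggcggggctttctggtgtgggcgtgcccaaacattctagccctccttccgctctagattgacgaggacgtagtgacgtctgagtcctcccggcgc
Mki67 (chr7:135716330-135716629, minus strand): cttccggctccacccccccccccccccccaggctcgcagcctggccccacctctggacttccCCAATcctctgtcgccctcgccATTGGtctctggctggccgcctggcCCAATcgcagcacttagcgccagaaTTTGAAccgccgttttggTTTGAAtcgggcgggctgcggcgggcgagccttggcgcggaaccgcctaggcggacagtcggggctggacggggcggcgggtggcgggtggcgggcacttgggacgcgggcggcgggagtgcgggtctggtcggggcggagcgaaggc

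Counted from that start, the Rrm2 window held 1 CCAAT match at position -50 and no CHR match. The Mcm2 window held a CCAAT match at -175 and a CHR match at -70. In the Mki67 window 3 CCAAT matches lay at -188, -166 and -141, followed by 2 CHR matches at -116 and -98. Promoter windows were found for 31 of the 40 genes, and there were 32 because Mcm7 had 2. A CCAAT match was found in 27 of the 32 windows (84.4%), against 37.4% of 32851 promoter windows of the same length. A CHR match was found in 17 (53.1%), against 19.2% of all windows, and each of those 17 also held a CCAAT match. E2F matches (TTTCCCGC, TTTCGCGC, TTTGCCGC or TTTGGCGC on either strand) were found in 6 windows (18.8%), against 2.26% of all windows. Matches of different motifs overlapped at 1 place. None of the 3 windows printed held these E2F letters, and 5 of the 32 windows held no match to any of the motifs. A match describes letters in a window and not a bound site.

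All 40 genes were well expressed. Mean FPKM over the 12 libraries ranged from 14.8 for Cenpf to 558 for Pcna, with a median of 69.0 against 11.8 over all genes tested, and every gene of the list lay above that median. Counts per library ran from 430 for Ccne1 to 20673 for Top2a. Together the 40 genes took 1.003% ± 0.0619 of the counted reads in siR_Ctrl (SD, n = 3), 0.923% ± 0.0572 in siR_Ctrl + IFN-γ, 0.917% ± 0.0394 in siR_Nostrill and 0.898% ± 0.0150 in siR_Nostrill + IFN-γ cells. The highest share, 1.07%, was that of siR_Ctrl replicate 1, and the lowest, 0.857%, that of siR_Ctrl + IFN-γ replicate 2. Without IFN-γ, the siR_Nostrill libraries (0.887% to 0.962%) overlapped narrowly with the siR_Ctrl libraries (0.959% to 1.07%). With IFN-γ, the siR_Nostrill range of 0.881% to 0.908% lay inside the siR_Ctrl range of 0.857% to 0.960%.

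**Figure D1:**
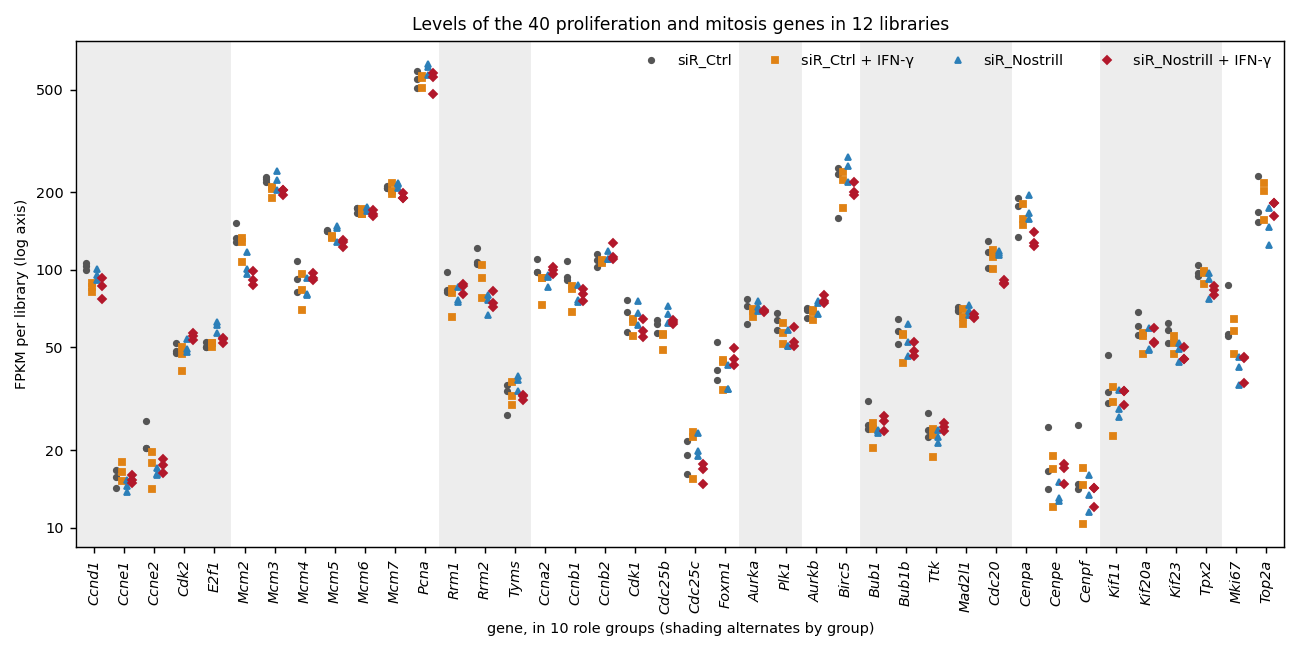
FPKM (log axis) of each of the 40 genes in each of the 12 libraries, by role group along the horizontal axis, with 1 point per library and a symbol per condition. Pcna is highest with a mean of 558 FPKM, Cenpf and Ccne1 are lowest, and the 4 conditions lie close together for most genes.

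Levels per transcript length differed by role. At the replication fork, the clamp gene Pcna measured 505, 589 and 551 FPKM in siR_Ctrl, 553, 565 and 508 in siR_Ctrl + IFN-γ, 629, 612 and 567 in siR_Nostrill and 481, 560.4 and 582 FPKM in siR_Nostrill + IFN-γ cells. The siR_Nostrill libraries lay just above the siR_Ctrl + IFN-γ libraries, and all other pairs of groups overlap. The Mcm genes, which encode the 6 subunits of the replicative helicase, had means from 88.8 FPKM (Mcm4) to 212 FPKM (Mcm3). Levels of Mcm6 were the steadiest, between 162 and 175 FPKM in all 12 libraries.

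Among G1/S regulators, Ccnd1 (cyclin D1, the partner of Cdk4 and Cdk6) was highest at a mean of 92.5 FPKM and Ccne1 (cyclin E1, the partner of Cdk2) lowest at 15.5 FPKM. Cdk2 had a mean of 50.3 FPKM and E2f1, a transcription factor of replication genes, one of 54.0 FPKM. In nucleotide supply, Rrm1 and Rrm2, the large and small subunits of ribonucleotide reductase, had means of 82.3 and 88.4 FPKM, and Tyms (thymidylate synthase) one of 33.6 FPKM.

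Of the genes that drive entry into mitosis, Ccnb2 (cyclin B2) was highest. It measured 102, 109 and 115 FPKM in siR_Ctrl, 108, 106 and 109 in siR_Ctrl + IFN-γ, 118, 109.7 and 110.2 in siR_Nostrill and 109.8, 112 and 127 FPKM in siR_Nostrill + IFN-γ cells. On this scale the siR_Ctrl + IFN-γ libraries lay just below both siR_Nostrill groups, and the other groups overlap. Ccna2 (cyclin A2) and Ccnb1 (cyclin B1) had means of 94.9 and 84.4 FPKM, Cdk1 63.9 FPKM, the phosphatase genes Cdc25b and Cdc25c 61.2 and 19.1 FPKM, and Foxm1, a transcription factor of G2/M genes, 41.9 FPKM.

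The mitotic kinase gene Aurka measured 61.7, 76.8 and 72.3 FPKM in siR_Ctrl, 70.2, 69.0 and 65.6 in siR_Ctrl + IFN-γ, 75.8, 71.9 and 68.9 in siR_Nostrill and 68.6, 69.4 and 69.9 FPKM in siR_Nostrill + IFN-γ cells. For this gene no group was separate from any other. Plk1 (Polo-like kinase) had a mean of 57.0 FPKM and Aurkb, the kinase of the chromosomal passenger complex, one of 71.4 FPKM.

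Birc5 (survivin), a subunit of the same complex, measured 159, 249 and 236 FPKM in siR_Ctrl, 223, 240.3 and 174 in siR_Ctrl + IFN-γ, 275, 253 and 219 in siR_Nostrill and 196, 199.5 and 218 FPKM in siR_Nostrill + IFN-γ cells. Its spread within a group was wide, and siR_Ctrl replicate 1 was the lowest library. Birc5 has the shortest transcript of the list, with an effective length of 791 nt. Cenpa, the histone H3 variant of centromeres, measured 134, 191 and 177 FPKM in siR_Ctrl, 158, 179 and 149.7 in siR_Ctrl + IFN-γ, 166, 195 and 157 in siR_Nostrill and 127, 124 and 140.2 FPKM in siR_Nostrill + IFN-γ cells. The last of these groups was low, but siR_Ctrl replicate 1 reached into it. The large kinetochore proteins were encoded at far lower levels, at means of 16.1 FPKM for Cenpe and 14.8 FPKM for Cenpf.

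In the spindle checkpoint, Cdc20, the activator of the anaphase-promoting complex that the checkpoint restrains, had a mean of 108 FPKM. The checkpoint genes themselves followed at 67.9 FPKM for Mad2l1, 53.1 for Bub1b, 24.8 for Bub1 and 23.5 FPKM for the kinase gene Ttk. Tpx2, which activates Aurora A on the spindle, measured 105, 94.5 and 96.9 FPKM in siR_Ctrl, 98.7, 88.1 and 96.9 in siR_Ctrl + IFN-γ, 77.2, 92.0 and 97.4 in siR_Nostrill and 79.9, 86.7 and 83.5 FPKM in siR_Nostrill + IFN-γ cells. With IFN-γ, every siR_Nostrill library lay below every siR_Ctrl library. The motor genes Kif11, Kif20a and Kif23, for spindle poles and cytokinesis, had means of 32.2, 55.6 and 51.1 FPKM. Top2a, the topoisomerase that untangles replicated chromosomes, measured 230.3, 153 and 168 FPKM in siR_Ctrl, 202, 156 and 217 in siR_Ctrl + IFN-γ, 125, 147 and 174 in siR_Nostrill and 181, 182 and 162 FPKM in siR_Nostrill + IFN-γ cells. These groups overlap and siR_Ctrl replicate 1 is the highest library.

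The first comparison set siR_Nostrill cells against siR_Ctrl cells, both without IFN-γ. Rrm2 was lower in siR_Nostrill cells. It measured 121, 105 and 107 FPKM in siR_Ctrl cells and 76.3, 66.6 and 80.0 FPKM in siR_Nostrill cells, which is 111 ± 8.85 against 74.3 ± 6.91 FPKM (SD, n = 3 each). The groups do not overlap. The log2 fold change on normalised counts was -0.55 (SE 0.0917), and the quasi-likelihood test of edgeR gave an adjusted p of 0.0434 (Benjamini-Hochberg over the 11900 genes, called at an adjusted p below 0.05). Rrm2 was the single gene of the 40 that was called, and 0.218% of all genes tested were called. The call was lost when any 1 library was left out other than siR_Ctrl + IFN-γ replicate 2, with an adjusted p between 0.0369 and 0.277 and a log2 fold change between -0.58 and -0.49. Without siR_Ctrl replicate 1, the library that stood apart, it was -0.51 with an adjusted p of 0.140. The call was also lost with no filter on low counts, with only the groups compared and with limma on FPKM at either pseudocount.

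Of the other 39 genes none was called by edgeR. DESeq2 called 5 of the 40 (12.5% of the list), with Rrm2, Mcm2, Ccne2 and Mki67 lower and E2f1 higher, against 1.71% of the genes it tested. In edgeR, 10 of the 39 had an unadjusted p below 0.05, which with Rrm2 makes 11 of 40, against 13.8% of all genes tested. They were 9 lower and 2 higher, and the median log2 fold change of the 40 genes was -0.08, against 0.01 over all genes. Without siR_Nostrill replicate 1 there were 7 such genes, 5 lower and 2 higher (7.82% of all genes), and the median was -0.05. Ccne2 (cyclin E2) measured 25.9, 20.3 and 20.4 FPKM in siR_Ctrl and 16.2, 16.1 and 17.1 FPKM in siR_Nostrill cells, without overlap, at a log2 fold change of -0.45 (SE 0.113, adjusted p of 0.162 in edgeR). Mcm2 stood at a log2 fold change of -0.36 (SE 0.0831), Ccnb1 at -0.27, Plk1 at -0.22, Kif23 at -0.22, Kif20a at -0.21 and Cenpe at -0.41. Cenpe, with an effective length of 7576 nt, stood at -0.05 after the trend with transcript length was removed. E2f1 measured 52.5, 50.4 and 50.04 FPKM in siR_Ctrl and 60.9, 56.9 and 63.0 FPKM in siR_Nostrill cells, a log2 fold change of 0.27 (SE 0.0738, adjusted p of 0.191 in edgeR). Cdc25b lay on the same side at 0.17. These genes were singled out by their values, and a p that misses the threshold does not show that a gene was the same in both conditions.

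Mki67, the gene of the Ki-67 antigen that coats mitotic chromosomes, had the largest estimate of the list, and it was also singled out after its values were seen. It measured 87.5, 55.4 and 56.3 FPKM in siR_Ctrl and 35.9, 41.8 and 46.0 FPKM in siR_Nostrill cells. The groups do not overlap, but siR_Ctrl replicate 1 is far above its own group. The log2 fold change was -0.68 (SE 0.170, adjusted p of 0.162 in edgeR). It was -0.45 without siR_Ctrl replicate 1 and -0.27 after the trend with transcript length was removed. Mki67 has an effective length of 9130 nt, and the part that length plays in its estimate was not tested beyond these values.

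In the presence of IFN-γ, the same comparison used the other 6 libraries. Here Mcm2, a helicase subunit at the replication fork, fell. It measured 128, 107 and 133 FPKM in siR_Ctrl + IFN-γ cells and 99.1, 91.5 and 87.5 FPKM in siR_Nostrill + IFN-γ cells, which is 123 ± 13.8 against 92.7 ± 5.90 FPKM (SD, n = 3 each). The groups do not overlap. The log2 fold change was -0.46 (SE 0.0832), and edgeR gave it an adjusted p of 0.0424. It was the single gene of the 40 called by edgeR, against 0.429% of all genes tested. DESeq2 called 4 of the 40, Mcm2, Rrm2 and Tpx2 lower and Cdk2 higher, against 4.01% of the genes it tested. With any 1 library left out the call was lost, apart from siR_Ctrl replicate 1, with an adjusted p between 0.0365 and 0.197 and a log2 fold change between -0.51 and -0.44. It was also lost with the replicate block, with no filter, with only the groups compared and with limma at either pseudocount.

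Rrm2 was also lower here, at 104, 77.7 and 93.0 FPKM against 82.4, 74.7 and 71.8 FPKM. These FPKM values overlap, while the normalised counts do not, and the log2 fold change of -0.32 (SE 0.0916) was not called (adjusted p of 0.128 in edgeR). Mki67 measured 57.7, 47.3 and 64.2 FPKM against 45.6, 46.0 and 36.3 FPKM, with all siR_Nostrill + IFN-γ libraries below all siR_Ctrl + IFN-γ libraries. Its log2 fold change was -0.46 (SE 0.169, adjusted p of 0.225 in edgeR). Cdc20 was also singled out by its values. It measured 112, 119 and 101 FPKM in siR_Ctrl + IFN-γ and 91.4, 88.5 and 87.9 FPKM in siR_Nostrill + IFN-γ cells, again without overlap. Its log2 fold change was -0.38 (SE 0.126, adjusted p of 0.190 in edgeR). In all, 8 of the 40 genes had an unadjusted p below 0.05, 6 lower and 2 higher, against 14.5% of all genes tested. The 2 on the higher side were Cdk2 at 0.20 and Cdc25b at 0.16. The median log2 fold change was -0.07, against 0.00 over all genes, and 29 of 40 estimates were below 0. With limma on FPKM, at either pseudocount, the median was -0.01 (0.05 and 0.06 over all genes), 22 estimates were below 0, and 5 lower and 4 higher genes had a p below 0.05 (16.7% and 16.6% of all genes). With the length trend removed 25 were below 0 and 14 genes had a p below 0.05, 12 lower and 2 higher (28.7% of all genes), or 18 with the replicate block as well (30.8%). The count was 5 without siR_Ctrl + IFN-γ replicate 2 (11.2%) and 5 without siR_Nostrill + IFN-γ replicate 3 (13.2%).

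**Figure D2:**
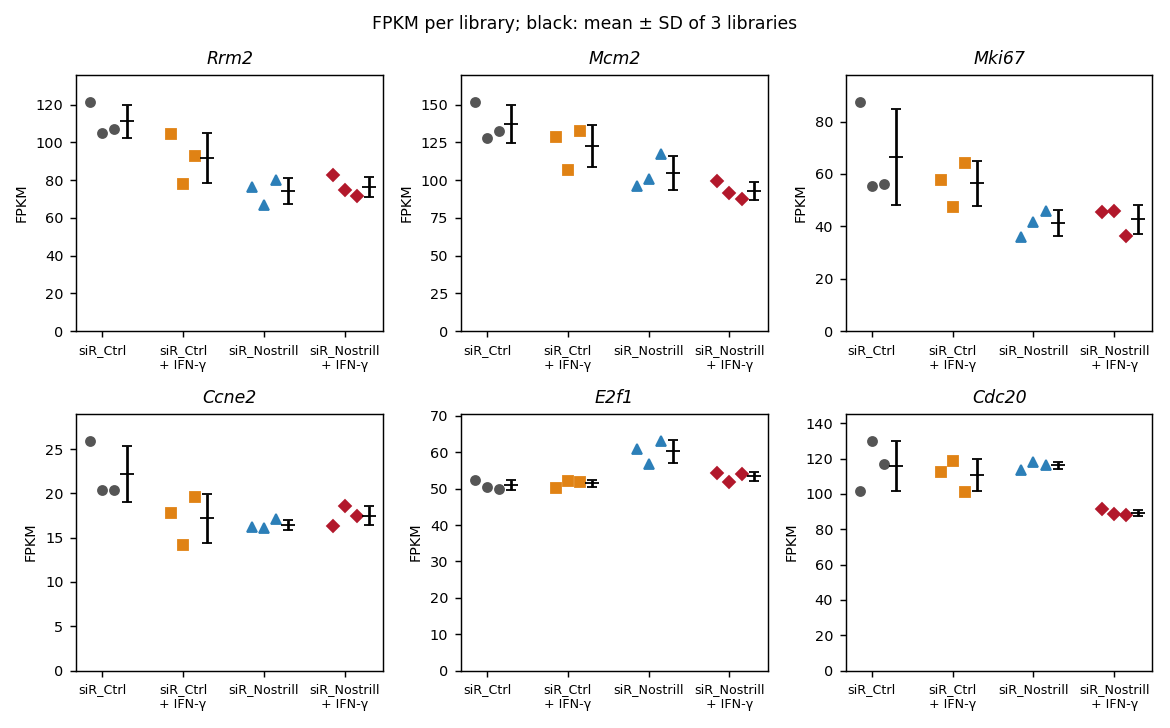
FPKM per library of 6 genes in the 4 conditions, with 1 point per library and the mean ± SD of 3 libraries in black, on axes that start at 0. Rrm2, Mcm2 and Mki67 are lower with siR_Nostrill in both states, E2f1 is high in siR_Nostrill cells without IFN-γ and Cdc20 is low in siR_Nostrill + IFN-γ cells. Of these differences, edgeR called Rrm2 without IFN-γ and Mcm2 with IFN-γ.

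The comparisons of siR_Nostrill with siR_Ctrl in the 2 states share no library, so they can be set side by side. Overlap was judged on normalised log2 CPM (counts scaled to a common library size). Without IFN-γ, 12 of the 40 genes were lower without overlap, against 9.27% of all genes, and 3 were higher without overlap, against 8.7% of all genes. With IFN-γ, 8 were lower, against 10.4% of all genes, and 4 were higher, against 11%. Mcm2, Rrm2, Kif23, Tpx2 and Mki67 were lower without overlap in both states, which is 41.7% of the 12 and 62.5% of the 8. These 5 are 12.5% of the list, while 2.15% of all genes were lower in both states. That is 256 of all genes, out of 1103 that were lower without overlap in cells without IFN-γ and 1232 in cells with it. Cdc25b and Aurkb were higher without overlap in both, 5% of the list against 2.23% of all genes.

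The same 5 genes were lower in both states when siR_Ctrl replicate 1 was left out, against 3.16% of all genes. Leaving out a library cannot make separated groups overlap, so no gene could be lost. The repeat therefore cannot show whether the separation depends on that library. With the trend of length removed the number was again 5, against 3.87% of all genes, but only Mcm2 and Kif23 stayed among them, and Cdc20, Cenpa and Cdc25c took the other places. On that scale 1 gene, Cdc25b, was higher in both states, against 4.01% of all genes. Mcm2, Kif23 and Cdc25b were thus separated in both states on either scale. Kif23, which bundles microtubules at the cleavage site, measured 62.1, 52.2 and 58.4 FPKM in siR_Ctrl and 44.1, 49.2 and 51.8 FPKM in siR_Nostrill cells, and 51.9, 47.3 and 55.5 against 45.2, 50.3 and 45.2 FPKM with IFN-γ. Cdc25b, a phosphatase that activates Cdk1, measured 63.8, 56.9 and 61.9 against 67.3, 62.4 and 72.6 FPKM without IFN-γ and 56.1, 48.7 and 56.6 against 64.0, 62.5 and 61.6 FPKM with it. Some of these FPKM values overlap between groups where the normalised counts do not. Kif23 and Cdc25b were named after their values were seen, and neither was called in the edgeR fit without length removal.

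The response to IFN-γ in siR_Ctrl cells was read next. None of the 40 genes was called by edgeR, against 5.45% of all genes tested, and DESeq2 called 1, Ccnd1, against 5.59% of the genes it tested. An unadjusted p below 0.05 was found for 5 of the 40, all lower, against 14.6% of all genes. That count was 2, 1 lower and 1 higher, without siR_Ctrl replicate 1 (13.0% of all genes) and 1 without siR_Ctrl + IFN-γ replicate 2 (11.7%). It was 3 without siR_Nostrill replicate 1 or 3 or siR_Nostrill + IFN-γ replicate 2 or 3 (13.2% to 14.1%) and with no filter (11.9%), and 0 with only the groups compared (10.1%). With the length trend removed it was 7, 6 lower and 1 higher (22.9%). The log2 fold changes ranged from -0.33 to 0.16 with SEs from 0.0633 to 0.197, and the median was -0.08 against -0.01 over all genes, or -0.04 without siR_Ctrl replicate 1 and -0.14 against -0.06 and -0.07 with limma at the 2 pseudocounts. The 3 smallest p-values were those of Ccne2, Ccnb1 and Ccnd1. Ccne2 measured 25.9, 20.3 and 20.4 FPKM in siR_Ctrl and 17.8, 14.2 and 19.6 FPKM in siR_Ctrl + IFN-γ cells, at a log2 fold change of -0.33 (SE 0.113, adjusted p of 0.163 in edgeR). Without siR_Ctrl replicate 1 it was -0.21.

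Ccnb1 measured 108, 93.5 and 91.4 FPKM in siR_Ctrl and 86.7, 68.7 and 84.6 FPKM in siR_Ctrl + IFN-γ cells, at -0.22 (SE 0.0793, adjusted p of 0.176 in edgeR). Ccnd1 measured 106, 100.04 and 104 FPKM without and 85.7, 82.2 and 89.0 FPKM with IFN-γ, at -0.20 (SE 0.0733, adjusted p of 0.192 in edgeR). In each of the 3 genes the groups do not overlap. The 2 remaining genes with a p below 0.05 were Rrm2 at -0.21 and Ccna2 at -0.18. Without overlap, 6 genes were lower, against 8.18% of all genes, and 1 was higher, against 9.57%.

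In siR_Nostrill cells IFN-γ likewise gave no call among the 40 genes, against 6.78% of all genes, while DESeq2 called 3 (7.5% of the list), Ccnd1, E2f1 and Cdc20, against 8.87% of the genes it tested. An unadjusted p below 0.05 was found for 7 of the 40, 6 lower and 1 higher, against 21.9% of all genes. Without any 1 of the 6 libraries compared it was at most 4 (14.0% to 23.2% of all genes). It was 1 without siR_Nostrill + IFN-γ replicate 2 (15.4%), 3 without siR_Nostrill replicate 2 (14.0%) and 3 with limma at either pseudocount (23.6% and 23.5%). With the length trend removed it was 14 (33.6%), and 16 with the replicate block as well (35.8%). Log2 fold changes ran from -0.43 to 0.28, with a median of -0.05 against 0.00 over all genes, or -0.02 against 0.01 and 0.02 with limma and -0.02 against -0.01 with the length trend removed. Cdc20 had the smallest p. It measured 114, 118 and 116 FPKM in siR_Nostrill and 91.4, 88.5 and 87.9 FPKM in siR_Nostrill + IFN-γ cells. The groups are well apart, and the log2 fold change was -0.40 (SE 0.126, adjusted p of 0.0883 in edgeR).

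E2f1 measured 60.9, 56.9 and 63.0 FPKM without and 54.2, 51.9 and 54.0 FPKM with IFN-γ, at -0.19 (SE 0.0738, adjusted p of 0.156 in edgeR). Ccnd1 measured 95.2, 91.7 and 100.4 FPKM without and 93.0, 86.2 and 77.2 FPKM with IFN-γ, at -0.19 (SE 0.0733, adjusted p of 0.171 in edgeR). The FPKM values of Ccnd1 overlap and those of E2f1 do not. Mcm2 at -0.20, Mcm3 at -0.17 and Cenpa at -0.43 were the other genes on the lower side, and Foxm1 at 0.28 was the one on the higher side. After removal of the length trend Cenpa stood at -0.19 and Foxm1 at 0.18. Without overlap, 10 genes were lower, against 16.9% of all genes, and 6 were higher, against 18.5%. Among the 10 were 4 helicase genes, Mcm2, Mcm3, Mcm5 and Mcm7, while Mcm4 was among the 6.

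**Figure D3:**
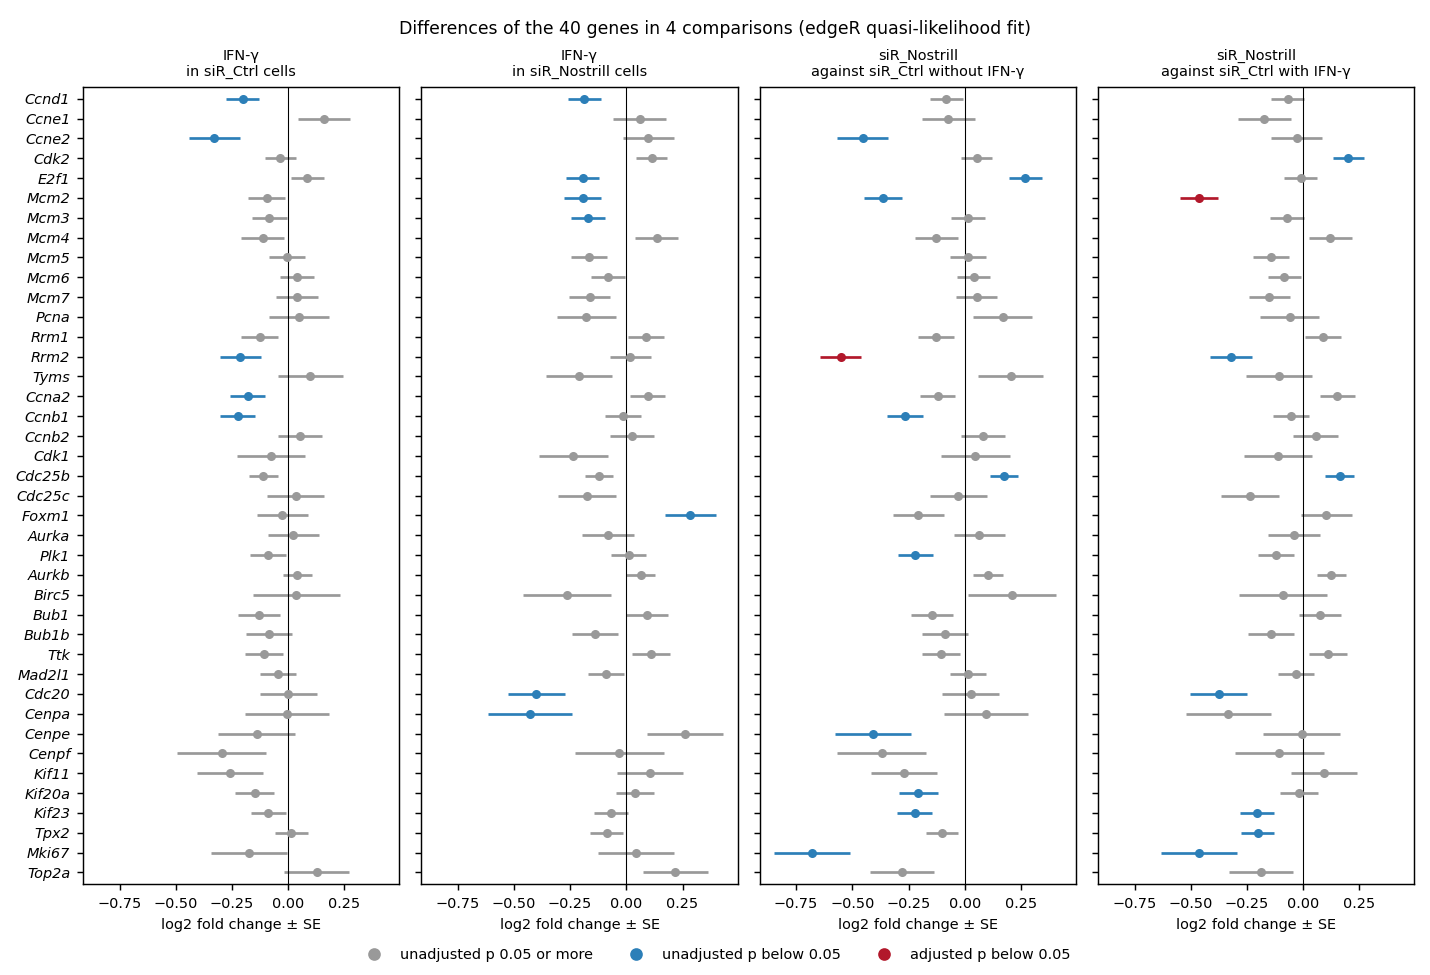
Log2 fold change ± SE of each of the 40 genes in 4 comparisons, 1 row per gene, from 1 edgeR fit of all 12 libraries. Blue marks an unadjusted p below 0.05 and red an adjusted p below 0.05. Most estimates lie within 0.25 of 0, and the red points are Rrm2 at -0.55 without IFN-γ and Mcm2 at -0.46 with IFN-γ.

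Whether the response to IFN-γ differed between the siRNAs was tested with the interaction term. No gene of the 40 and none of all genes tested was called (0% of 11900) by edgeR, and DESeq2 called none of the 40. An unadjusted p below 0.05 was found for 4 of the 40, against 10.7% of all genes. With 1 library left out the count ran from 1 to 6 (4.50% to 21.4% of all genes). It was 1 without siR_Ctrl + IFN-γ replicate 2 or siR_Nostrill + IFN-γ replicate 2, and 2 without siR_Ctrl replicate 1, siR_Nostrill replicate 2 or siR_Nostrill + IFN-γ replicate 1 or 3. With the length trend removed it was 8 (19.0%), and 12 with the block as well (22.3%). They were Ccne2 at 0.43 (SE 0.160), E2f1 at -0.28 (SE 0.104), Ccna2 at 0.27 (SE 0.110) and Cdc20 at -0.40 (SE 0.178), each with an adjusted p of 0.430 in edgeR. Cdc20 stood at -0.21 after removal of the length trend. In Ccne2 the 3 siR_Ctrl libraries were the highest of all 12, and in E2f1 the 3 siR_Nostrill libraries were.

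Ccna2 measured 110.0, 97.9 and 97.7 FPKM in siR_Ctrl, 92.7, 73.0 and 92.7 in siR_Ctrl + IFN-γ, 94.0, 86.0 and 95.7 in siR_Nostrill and 102, 96.7 and 99.6 FPKM in siR_Nostrill + IFN-γ cells. It was thus low with IFN-γ in siR_Ctrl cells and not in siR_Nostrill cells, a difference that the test did not call. The interaction estimates of the 40 genes were 20 above and 20 below 0, with a median of 0.00 against 0.01 over all genes. With limma 25 were above and 15 below 0, at a median of 0.09 against 0.07 and 0.09.

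The list was then set beside 86 other cell cycle genes, of which 85 passed the filter. With IFN-γ in siR_Ctrl cells, edgeR called 2 of the 85 higher and none lower, against 5.45% of all genes called. DESeq2 called 3 higher and 1, Lin9, lower, against 5.59% of the genes it tested. With the length trend removed, 7 were called higher and 4 lower, against 11.1% of all genes. Cdk6, the kinase that pairs with D-type cyclins, had a level of 8.17 ± 1.88 FPKM without and 18 ± 2.40 FPKM with IFN-γ (SD, n = 3 each), and its log2 fold change was 1.20 (SE 0.132, adjusted p of 0.000102 in edgeR). Cdkn1a, the CDK inhibitor p21, went from 63.8 ± 4.72 to 117 ± 20.3 FPKM, at 0.95 (SE 0.156, adjusted p of 0.00269 in edgeR). In siR_Nostrill cells it measured 69.2, 75.6 and 71.1 FPKM without and 80.2, 101 and 112 FPKM with IFN-γ, without overlap, at 0.42 (SE 0.155, adjusted p of 0.141 in edgeR), and it was called there with the length trend removed. In siR_Nostrill cells, edgeR called 2 higher and 2 lower, against 6.78% of all genes called. Cdk6 went from 7.14 ± 0.659 to 19.9 ± 2.18 FPKM, at 1.45 (SE 0.133, adjusted p of 2.2e-05 in edgeR).

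Ccnd2 (cyclin D2) rose with IFN-γ in siR_Nostrill cells by 0.67 (SE 0.133), Cdkn2b, the CDK inhibitor p15, fell by 0.63 (SE 0.153) and Ndc80, a microtubule-binding subunit of the kinetochore, fell by 0.42 (SE 0.105), all on the log2 scale. Adjusted p in edgeR was 0.00880, 0.0305 and 0.0333. In siR_Ctrl cells the estimates were 0.44 (SE 0.132, adjusted p of 0.0937 in edgeR) for Ccnd2, which DESeq2 called there, 0.14 for Cdkn2b and -0.09 for Ndc80. For these genes, Cdk6 and Cdkn1a the interaction was not called by edgeR (adjusted p between 0.430 and 0.489), though Cdkn2b was called with the length trend removed and the replicate block. The call of Cdkn2b was lost without any 1 of 5 libraries (siR_Nostrill replicate 1 or 2, or any siR_Nostrill + IFN-γ replicate). That of Ndc80 was lost without any 1 of 7 (siR_Ctrl replicate 3, siR_Ctrl + IFN-γ replicate 1, any siR_Nostrill replicate, or siR_Nostrill + IFN-γ replicate 1 or 2). Those of Cdk6 and Ccnd2 were kept without each of the 12 libraries in turn. For IFN-γ in the 2 kinds of cells DESeq2 called 4 and 7 of the 85 (5.59% and 8.87% of the genes it tested), and with the length trend removed 11 and 15 were called (11.1% and 18.8% of all genes). In edgeR none of the 85 was called in either siR_Nostrill comparison or in the interaction, while 12, 11 and 13 of them had an unadjusted p below 0.05, against 13.8%, 14.5% and 10.7% of all genes. With 1 library left out these counts ran from 2 to 20, 4 to 16 and 6 to 22, against 6.59% to 23.0%, 9.54% to 18% and 4.50% to 21.4% of all genes. Their median log2 fold change was -0.10 without and -0.03 with IFN-γ for siR_Nostrill against siR_Ctrl, beside -0.08 and -0.07 in the 40 genes. With limma at either pseudocount the median of the 85 with IFN-γ was 0.03, against 0.05 and 0.06 over all genes. Their median without IFN-γ was -0.05 when siR_Nostrill replicate 1 was left out. DESeq2 called none of the 85 without IFN-γ, against 1.71% of the genes it tested, and 4 with IFN-γ, Cdkn2c, Incenp, Smc1a and Ndc80, against 4.01%. With the length trend removed 3 of the 85 were called without IFN-γ, Cdkn2b, Gins1 and Ube2s, against 3.44% of all genes, and 12 with IFN-γ, against 13%. With the replicate block as well there were 5 (4.66% of all genes), 14 (15.9%) and, in the interaction, 3 (2.07%).

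The 40 genes also differed among themselves in how they varied between replicates. The SD of departures from the group mean, taken over the 12 libraries on log2 CPM, had a median of 0.0885 in the list. It was 0.165 over all genes tested, whose median mean count was lower, 605 against 3149. This SD makes no allowance for the group means and so lies below a pooled within-group SD. Departures from the group mean were related to transcript length in most libraries. Spearman's rho of the departure with effective length was at least 0.4 in size in 9 of the 12. In siR_Ctrl replicate 1, rho across the 40 genes was 0.68, and in siR_Ctrl replicate 2 it was -0.68. Over the 12 libraries rho ran from -0.68 to 0.69, and the 3 with little trend were siR_Nostrill replicate 2 at -0.12, siR_Ctrl + IFN-γ replicate 1 at 0.20 and siR_Nostrill + IFN-γ replicate 2 at 0.31. These values are across genes of the same libraries and are given as a description. In siR_Ctrl replicate 1 the long genes Cenpf, Mki67, Cenpe, Kif11 and Top2a lay above and the short genes Birc5 and Cenpa below their group. Cdk1 and Tyms, with effective lengths of 4113 and 3577 nt, departed with the short genes.

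**Figure D4:**
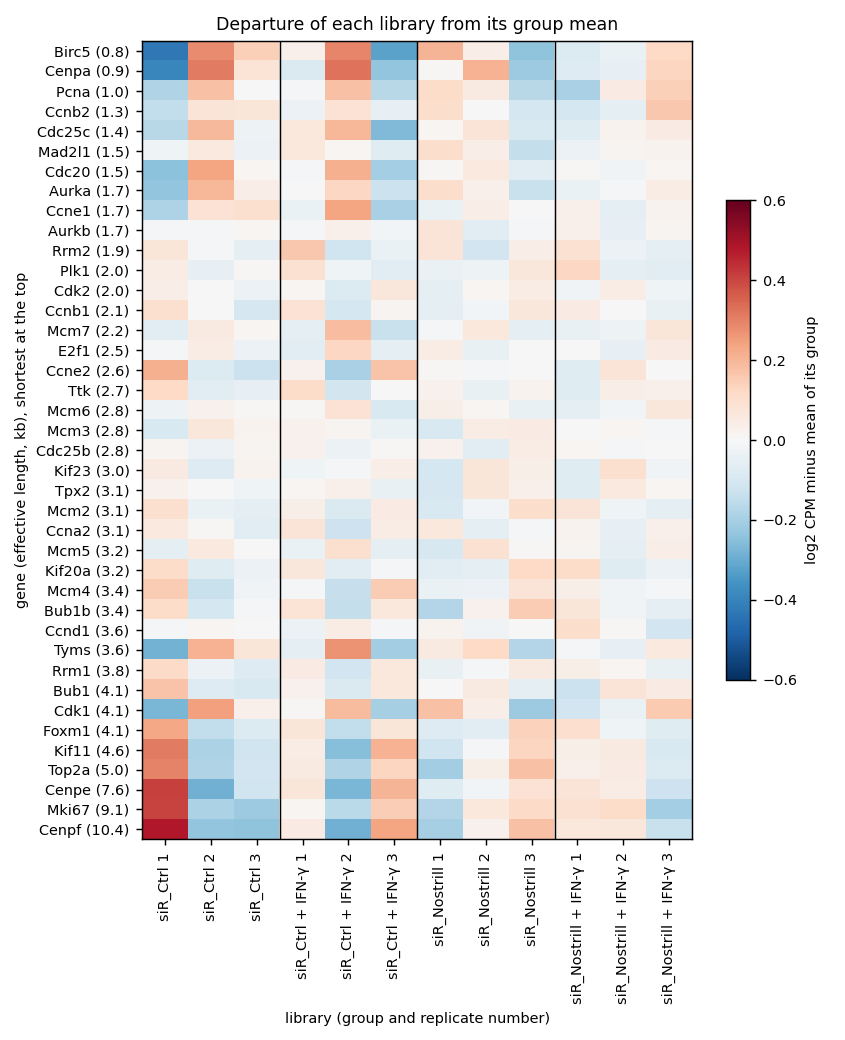
Log2 CPM minus the mean of its group for the 40 genes (rows, from the shortest at the top, Birc5 at 791 nt, to the longest at the bottom, Cenpf at 10362 nt) in the 12 libraries (columns). Red is above and blue below the group mean. The long genes are red and the short genes blue in siR_Ctrl replicate 1, and siR_Ctrl + IFN-γ replicate 2 shows the opposite.

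Each comparison was also fitted after a lowess trend with length had been removed from every library. Across the 40 genes, rho of the log2 fold change with length before removal was -0.45 for IFN-γ in siR_Ctrl and 0.38 in siR_Nostrill cells, -0.55 for siR_Nostrill against siR_Ctrl without and 0.11 with IFN-γ, and 0.53 for the interaction. After removal it was 0.28, -0.35, 0.36, -0.18 and -0.42 in the same order, so the siR_Nostrill comparison with IFN-γ carried little trend on either scale. Without IFN-γ, 5 genes were called for siR_Nostrill after removal, Rrm2, Mcm2 and Ccne2 lower and E2f1 and Cdc25b higher, against 3.44% of all genes. The log2 fold change of Rrm2 was -0.64 and that of Mcm2 -0.31. With IFN-γ, 7 genes were called, all lower, against 13% of all genes. They were Mcm2, Mki67, Top2a, Kif23, Tpx2, Cdc20 and Cenpa, and Mcm2 stood at -0.49.

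For IFN-γ in siR_Ctrl cells, 1 gene, Top2a, was called on the higher side after removal, against 11.1% of all genes. In siR_Nostrill cells 8 were called, against 18.8% of all genes, with Ccnd1, E2f1, Mcm2, Bub1b, Cdc20, Cenpa and Cenpf lower and Foxm1 higher. The interaction again gave none (0% of all genes tested). Removal changed the sign of 11 of the 40 estimates for IFN-γ in siR_Ctrl cells, 9 for IFN-γ in siR_Nostrill cells, 11 for siR_Nostrill against siR_Ctrl without IFN-γ, 4 with it and 13 for the interaction. Rrm2, Mcm2 and Mki67 kept a negative log2 fold change against siR_Ctrl in both states in every alternative fit that was run. These fits reused the same libraries, and most of the 40 estimates in the siR_Nostrill comparisons also kept their sign in each fit.

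Positions and neighbours bear on a few of the genes. Rrm2 (gene ID 20135) lies at chr12:24708254-24714146, Mcm2 (17216) at chr6:88883474-88898780 and Mki67 (17345) at chr7:135689784-135716450 in RefSeq on GRCm38.p6, and no other RefSeq gene overlaps these 3. Of the 40 genes, 10 overlap another gene of the tables, among them Cdc20 with Elovl1 and E2f1 with Necab3. Pseudogenes are named after 4 of them, Pcna, Tyms, Ccnb1 and Ccnb2. How reads were split between such genes is not stated in the sources used, so the values of these genes are less certain.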

How the data were processed

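Per the labels and the study's methods, mRNA was sequenced in 4 groups of 3 libraries. Reads had been aligned to GRCm38.p6 with HISAT2, as the submitters' processing notes name it. The study's methods name Bowtie2 beside it. Which tool counted reads is not stated in the sources used. The authors deposited an estimated count per gene, not normalized. FPKM deposited by the authors is scaled for mapped reads and for transcript length, as is the TPM deposited with it, which sums to about the same total in every library. Summed FPKM differed between libraries, from 570935 to 794809, so fold changes were taken from counts. Between 90.6% and 91.6% of the estimated counts of a library were whole, and all were rounded.

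Counts were tested with edgeR 4.0.16 in R 4.3.3 (quasi-likelihood test, TMM, default filter, all 12 libraries in 1 fit, Benjamini-Hochberg over all genes tested, threshold 0.05). Alternatives were DESeq2 1.42.0, its size factors in edgeR, no filter, a filter at a mean of 5 CPM, a fit of only the groups compared, a replicate block, limma 3.58.1 (genes with a mean FPKM of 0.5 or more, on log2 of FPKM plus 1 or plus 0.1), the length trend removed (lowess, span 0.3), and each library left out. Shares given for DESeq2 are of all genes with a p-value, which include all 86 other cell cycle genes. Any gene that its own filter on low counts left without an adjusted p stayed in that base. Such a gene could not be called, which can lower the share. Counts of genes separated in both states, and their repeats, were added after seeing the data. Effective lengths were derived from the deposited counts and FPKM. Log2 CPM used a prior count of 2. The edgeR step was tested on simulated data. Per-library values are given for genes of the list that edgeR called, for the highest gene of each of 10 role groups and, where no gene was called, for the 3 smallest p-values. Others were added after the values were seen. They are those of Ccne2, E2f1, Cdc20, Mki67, Kif23 and Cdc25b between the siRNAs, and of Cdkn1a with IFN-γ. The genes and lists were chosen with earlier results of these data known. Cell type markers served only to check the label. Libraries of 1 group differed beyond sampling noise (chi-square per degree of freedom of 6.72 to 101), and each library counted as 1 replicate. If they were not separate cultures, p-values measure technical spread.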

Additional observations from a re-analysis of the deposited data

How the results depend on the processing

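The number of genes called among the 40 depended on the fit. It is given with the share of all genes called in the same fit. For IFN-γ in siR_Ctrl cells it was 0 (5.45%), and 1 with DESeq2 (5.59%) and with the length trend removed, without (11.1%) or with (12.1%) the replicate block. For IFN-γ in siR_Nostrill cells it was 0 (6.78%), and it was 3 with DESeq2 (8.87%), 2 with only the groups compared (17.0%), 1 with limma at either pseudocount (7.96% and 7.90%), 8 with the length trend removed (18.8%) and 9 with the block as well (22.3%). For siR_Nostrill without IFN-γ it was 1 (0.218%), and it was 5 with DESeq2 (1.71%), 0 with no filter (0.120%), only the groups compared (0%) or limma (0.180% and 0.189%), 5 with the length trend removed (3.44%) and 7 with the block as well (4.66%). With IFN-γ it was 1 (0.429%), and it was 4 with DESeq2 (4.01%), 0 with no filter (0.200%), only the groups compared (0%), limma (1.22% and 1.03%) or the replicate block (0.269%), 7 with the length trend removed (13.0%) and 8 with the block as well (15.9%). The interaction gave 0 in all, where 0% of all genes were called in each fit but the length trend removed with the block (2.07%). Leaving out 1 library gave 0 to 0 for IFN-γ in siR_Ctrl cells (4.07% to 4.90% of all genes), 0 to 1 in siR_Nostrill cells (4.08% to 9.47%), 0 to 1 for siR_Nostrill without IFN-γ (0% to 0.308%), 0 to 1 with IFN-γ (0% to 0.599%) and 0 to 0 for the interaction (0%). Genes lower in both states numbered 5 to 7 (2.29% to 4.15% of all genes) and genes higher in both 2 to 3 (2.34% to 3.87%) with 1 library left out, and 1 gene was higher in both with the length trend removed. With a library left out these counts of separated genes could only stay or rise. The causes were not tested. Over 10 other settings, the adjusted p of Rrm2 without IFN-γ ran from 1.87e-05 to 0.328 and that of Mcm2 with IFN-γ from 7.53e-06 to 0.204. Replicate numbers were not taken to pair the libraries. Only 8 of 18 same-numbered pairs had deviations correlated above 0.1, and the same number correlated best in 13 of 36 cases. Departures followed transcript length in most libraries, so these correlations cannot show that no pairing exists. With the length trend removed, adding the block raised the share of all genes called in every comparison, in the interaction from 0% to 2.07%. The block alone changed no other count of genes called among the 40. It did move counts of genes with an unadjusted p below 0.05. For IFN-γ in siR_Nostrill cells that count went from 7 to 6 of the 40. For siR_Nostrill without IFN-γ it went from 12 to 18 of the 85 other cell cycle genes. A count of at least 430 reads lay behind every level of the 40 genes.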
